A study of Drosophila melanogaster with 3 samples.

Results

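Promoter summits of Ouib-GFP with protein-coding transcription starts on only 1 strand are described here, from chromatin immunoprecipitation of whole Drosophila melanogaster prepupae. A summit, the position of highest enrichment in a peak, was kept where at least 1 coding start lay within 500 bp and every coding start within 500 bp was on the same strand. Of 5048 peaks in the reproducible list made from all replicates (the optimal list), 1143 met this rule, 552 had coding starts on both strands within 500 bp, and 3353 had none. The rule uses position and annotation only, not signal. The 3 samples were biological replicates of 1 group: transgenic flies carrying the ouib gene product (CG11762) fused to enhanced GFP, both sexes mixed, pulled down with an anti-GFP antibody. Age within the prepupal stage was not given. There was no second genotype or treatment, so the comparisons are between classes of promoter, repeated in each replicate. All cell types of the animal were pooled, so binding in few cells and weak binding in many cannot be told apart.

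Ouib (ouija board) is a zinc finger protein with a zinc-finger-associated domain (ZAD), a protein-protein interaction domain common among insect zinc finger proteins. It is known from the prothoracic gland, the gland that makes ecdysone, where it acts on the ecdysone synthesis gene spookier. Many Drosophila genes sit head to head and share a promoter region, while others have a promoter of their own that reads in 1 direction. Housekeeping genes are often of the first kind and developmentally regulated genes of the second.

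Of the sequences that recurred at these summits, 2 forms are shown, the first at 2.27% and the second at 0.875% of the 1143. Neither was particular to one-strand summits. The first was a pair of inverted copies of CCACTGT placed on either side of an AT-rich summit. Windows of 200 bp at 5 members with such a pair are printed below on the strand of the nearest gene, 5' to 3', in release 6 (dm6) coordinates. Capitals mark CCACTGT and its reverse complement ACAGTGG. They lie at chr2L:4997554-4997753 (minus strand, 273 bp upstream of a start of Rtnl1, an endoplasmic reticulum shaping reticulon), chr3R:24141134-24141333 (plus strand, Kal1, 161 bp upstream), chrX:13739426-13739625 (plus strand, CG11151, 218 bp upstream), chr3R:11655876-11656075 (plus strand, CG42327, 173 bp upstream) and chr3L:20444899-20445098 (plus strand, CG5910, 159 bp upstream). The windows of Rtnl1, CG11151 and CG5910 are intronic and those of Kal1 and CG42327 intergenic.
Rtnl1: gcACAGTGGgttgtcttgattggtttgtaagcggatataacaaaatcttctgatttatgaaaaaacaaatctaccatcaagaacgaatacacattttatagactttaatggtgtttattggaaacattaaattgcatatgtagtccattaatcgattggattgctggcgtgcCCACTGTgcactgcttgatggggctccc
Kal1: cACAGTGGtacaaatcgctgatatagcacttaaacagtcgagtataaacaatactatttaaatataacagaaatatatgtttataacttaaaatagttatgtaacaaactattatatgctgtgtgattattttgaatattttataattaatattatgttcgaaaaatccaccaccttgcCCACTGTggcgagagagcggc
CG11151: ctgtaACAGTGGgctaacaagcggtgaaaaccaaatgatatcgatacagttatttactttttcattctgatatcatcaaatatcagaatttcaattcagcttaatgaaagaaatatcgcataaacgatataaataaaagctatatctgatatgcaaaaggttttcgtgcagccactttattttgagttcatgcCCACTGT
CG42327: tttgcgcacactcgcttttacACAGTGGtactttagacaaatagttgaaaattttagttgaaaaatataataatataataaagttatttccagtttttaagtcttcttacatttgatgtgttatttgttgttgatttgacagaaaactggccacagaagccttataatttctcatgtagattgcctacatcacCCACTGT
CG5910: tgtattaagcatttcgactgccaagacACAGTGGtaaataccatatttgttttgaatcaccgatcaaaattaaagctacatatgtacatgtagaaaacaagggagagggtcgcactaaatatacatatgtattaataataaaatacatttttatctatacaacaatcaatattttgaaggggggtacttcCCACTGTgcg

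The second was TACGCCCA, which was held by several of the strongest members. Capitals mark it and its reverse complement in the windows of CG14100 (chr3L:19590525-19590719, minus strand), Ugalt, which encodes a UDP-galactose transporter (chrX:2703853-2704004, minus strand), CG31145 (chr3R:23669765-23669964, minus strand) and Hpf1, a partner of the enzyme that adds ADP-ribose to histones (chr3R:5791659-5791858, plus strand). All are intergenic, and those of CG14100 and Ugalt end 1 base before the transcription start.
CG14100: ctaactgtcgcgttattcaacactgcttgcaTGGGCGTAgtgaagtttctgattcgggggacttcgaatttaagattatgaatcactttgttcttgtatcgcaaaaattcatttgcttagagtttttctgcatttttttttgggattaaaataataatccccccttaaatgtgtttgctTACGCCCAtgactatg
Ugalt: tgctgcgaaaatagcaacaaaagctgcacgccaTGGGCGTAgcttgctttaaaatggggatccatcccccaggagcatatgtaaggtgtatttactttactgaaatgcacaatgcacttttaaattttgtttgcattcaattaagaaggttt
CG31145: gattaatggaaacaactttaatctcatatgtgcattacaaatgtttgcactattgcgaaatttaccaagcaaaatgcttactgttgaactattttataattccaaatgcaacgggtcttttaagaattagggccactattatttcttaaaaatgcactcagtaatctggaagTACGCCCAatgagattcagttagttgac
Hpf1: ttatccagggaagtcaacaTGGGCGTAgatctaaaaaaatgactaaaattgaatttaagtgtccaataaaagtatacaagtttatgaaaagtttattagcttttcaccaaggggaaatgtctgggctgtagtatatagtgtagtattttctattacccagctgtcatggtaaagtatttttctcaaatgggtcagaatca

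The core of the first form, the letters CACTG, was found, after the values were seen, by counting all sequences of 6, 7 and 8 bases in the members' 200 bp windows on both strands. They were ranked against flanking windows, between the 286 strongest members and the rest, and, for 8 bases, against all one-strand coding starts, which is the ranking given here. Of 1840 such 8-mers present in at least 20 members, the 15 most frequent relative to all one-strand coding starts (windows at the members' median position, 180 bp upstream) all held the 5 bases CACTG or CAGTG, against 1.74% of the 1840. Some of the 15 overlap one another, such as CCCACTGT, CCACTGTG and CACTGTGC, so 1 longer stretch can supply several and they are not independent. CTACACTG led, in 1.75% of members and 0.311% of all one-strand starts. CCACTGTG was in 4.37% of members (4.96%, 4.28% and 4.27% in the one-strand summits of replicates 1, 2 and 3), 2.90% of both-strand summits, 4.03% of summits away from coding starts and 1.14% of all one-strand starts. The 5 bases CACTG were in 43.4% of members, against 29.1% of all one-strand starts, 30.8% of flanks 1000 bp to each side of the members, 36.8% of both-strand summits and 49.1% of summits away from starts. In the replicates' own one-strand summits the share was 42.7% ± 0.706 (SD, n = 3). CACTG was thus enriched at members but not particular to them. These letters were chosen from the same windows, so the shares are given without a test.

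The inverted arrangement was noticed by eye in printed windows and was then counted in the same windows for 3 forms of the letters, so it is a description without a test. Between 51 and 150 bp before the summit, read along the nearest gene, ACAGTGG occurred 62 times and CCACTGT 5 times at members. From 51 to 150 bp after the summit the order was the opposite, with CCACTGT 83 times and ACAGTGG 5 times. The CC end therefore pointed towards the summit in 93.5% of copies. In the replicates' one-strand summits the share was 88.5%, 92.5% and 85.9%, and at all one-strand starts, around the point 180 bp upstream, 61.1%. Summits away from coding starts showed the same arrangement, with 91.1%, and both-strand summits 76.2%. The other forms counted at members were CCCACTG, with 92.9% of copies having their first base towards the summit, and CACTG alone, with 53.0%.

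**Figure D1:**
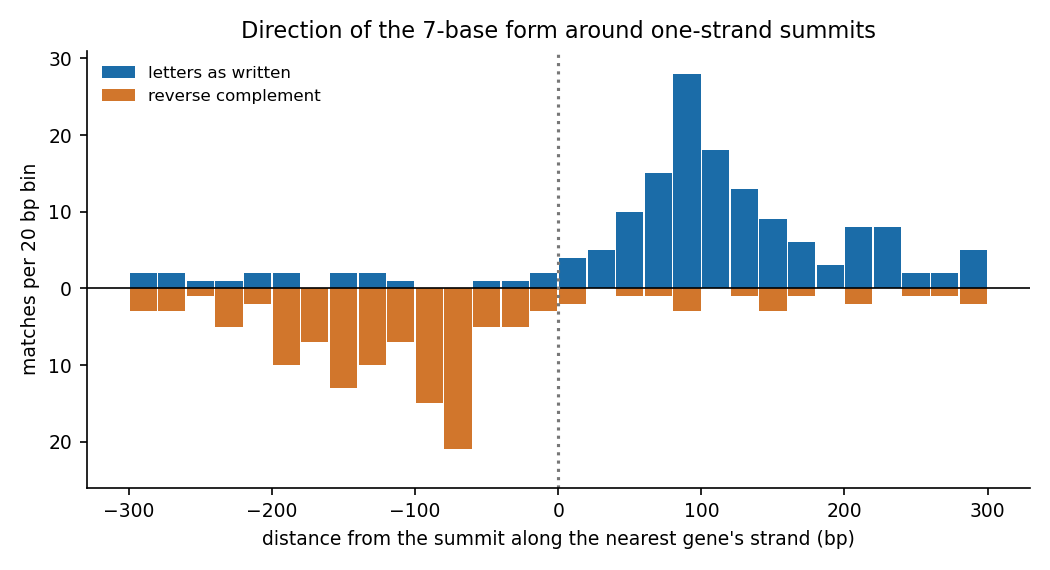
Matches to CCACTGT (blue, upwards) and to its reverse complement (orange, downwards) per 20 bp bin at the 1143 one-strand summits, against distance from the summit along the nearest gene's strand. The reverse complement lay before the summit, with 21 matches 80 to 61 bp before it, and the letters as written after it, with 28 matches 80 to 99 bp after it.

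Inverted copies on both sides were present at 26 members (2.27%; 1.52%, 2.23% and 1.53% in the replicates), and copies turned the other way on both sides at 0. At all one-strand starts the share with the inward pair was 0.0946%, at both-strand summits 0.362% and at summits away from starts 1.82%. Between the copies of the 26 members lay 129 to 248 bp, median 175. That stretch had a mean GC content of 33.0%. The stretches were not copies of each other: the longest run shared by any 2 of them had a median of 8 bases and a maximum of 14.

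The 26 pair members belonged to 24 genes, 13 lay in introns and 10 were intergenic, and 25 were among the 5048 strongest peaks of all 3 replicates. Signal in a replicate is given below as a multiple of the median of that replicate's 5048 best peaks, because the authors' signal has no stated scale. Rtnl1 held 3 of the pairs. At the strongest of them, 273 bp upstream of a start, signal was 5.43, 5.80 and 5.57 in replicates 1, 2 and 3. The other Rtnl1 pairs, at 259 and 325 bp upstream, had means of 1.88 ± 0.170 and 1.05 ± 0.0680 (SD, n = 3), so 1 arrangement went with unlike signal at 1 gene. ph-p, which encodes the Polycomb group protein Polyhomeotic, had the highest signal of the 26, with 6.52, 5.85 and 5.39 at a summit 445 bp downstream of a start. Its tandem neighbour ph-d is a near-identical copy, so reads of the copies may have been exchanged. PAN3, a subunit of a poly(A) nuclease, had 5.04, 4.08 and 5.13. The weakest was Ilp7, an insulin-like peptide gene, with 0.956, 0.779 and 0.484, under the median peak in every replicate. In the optimal list 14 of the 26 were among the 286 strongest members.

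TACGCCCA was picked from the ranking of the 286 strongest members against the rest, so its place among strong members is what chose it. It was in 10 members (0.875%), 9 of them among the 286 strongest. It was in 0.372% of all one-strand starts, 0.656% of the members' flanks, 1.45% of both-strand summits and 0.149% of summits away from starts. Unlike CACTG it was thus rarer at summits away from promoters than at members. The share in the flanks, 1000 bp to each side, came near that of the members themselves. CG14100 held 2 inverted copies and was the strongest member, with 11.9, 13.3 and 11.7 times the median peak in replicates 1, 2 and 3. Ugalt followed with 10.7, 12.2 and 12.1. CG31145 had 8.41, 9.57 and 8.07, and Hpf1 6.538, 6.89 and 6.07. The neuronal RNA-binding protein gene elav (3.998 ± 0.210), Mal-A5, a maltase gene (3.59 ± 0.147), Dp, the partner of E2F (2.67 ± 0.285), pnut, a septin (2.67 ± 0.170), and Best2, a bestrophin chloride channel gene (2.24 ± 0.334), came next. The only weak holder was Fer2, with 0.764, 0.569 and 0.975. Few matches lay at the summit itself: 6 lay 51 to 100 bp before it and 4 lay 50 to 99 bp after it, with 1 in the 100 bp between.

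Most members lay upstream of the start they were assigned to, as most both-strand summits did. The median summit was 180 bp upstream (quartiles 284 and 60.5 bp upstream), and 918 of 1143 (80.3%) were upstream, 223 downstream and 2 on the start. From 250 to 101 bp upstream lay 430 members (37.6%), while 82 (7.17%) lay within 50 bp of the start. In the replicates' own lists the median offset was -164 ± 8.72 bp (SD, n = 3) and 78.8% ± 1.95 were upstream. A second, smaller group of 102 (8.92%) lay more than 250 bp downstream. Summits in the optimal list and in replicates 1, 2 and 3 differed by a median of 16, 15 and 22 bp.

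**Figure D2:**
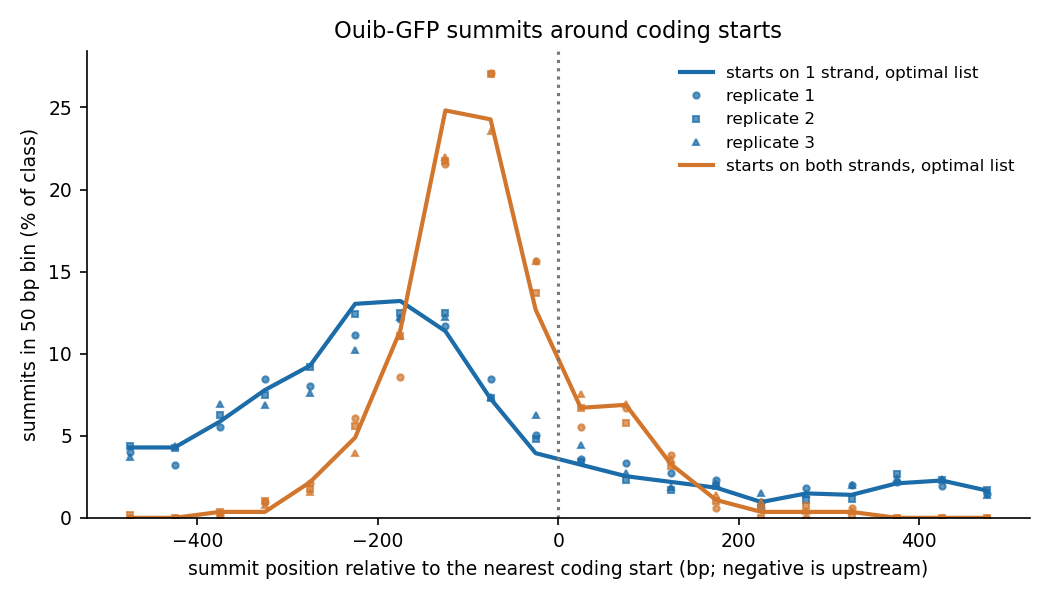
Share of summits per 50 bp bin against distance from the nearest coding start (negative is upstream), for one-strand (blue) and both-strand (orange) promoter summits. Lines show the optimal list and points the 3 replicates. One-strand summits spread over a broad band around 180 bp upstream, and both-strand summits lay closer, around 93 bp upstream.

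Both-strand summits lay nearer, at a median of 93 bp upstream, and the median distance was 110 ± 3.46 bp longer at one-strand summits, in 3 of 3 replicates. Starts on both strands within 500 bp of a summit limit how far it can be from the nearest, so this difference belongs partly to the rule. The test here, and for all comparisons of the 2 promoter classes below, was an exact two-sided sign-flip permutation test over the 3 replicates. It cannot give a p below 0.25, the value found for distance, and 0.324 after Benjamini-Hochberg adjustment over 22 measures. The upstream share was similar, at 81.0% of both-strand and 80.3% of one-strand summits. In the replicates it was 2.34 ± 1.96 percentage points lower at one-strand summits, in 3 of 3 (exact p = 0.25, adjusted 0.324).

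One-strand starts were less often occupied. Of 14793 distinct one-strand starts 9.71% had an optimal summit of any class within 500 bp, against 26.1% of the 4483 starts with a partner on the other strand. In replicates 1, 2 and 3 the shares were 10.3%, 9.60% and 10.2% against 25.5%, 26.7% and 24.2%, lower in 3 of 3 (exact p = 0.25, adjusted 0.324). One-strand starts were 76.7% of all coding starts, and one-strand summits 67.4% of promoter summits (69.3% ± 2.60 in the replicates). These shares count unlike units, starts and summits, so they do not measure the difference in occupancy. Of the starts with a summit, 1437 were one-strand and 1168 had a partner.

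Signal did not separate the classes beyond the spread between replicates. The median optimal signal was 107.4 at one-strand and 109.4 at both-strand summits. In the replicates the log2 difference of medians was 0.01, -0.06 and -0.04, mean -0.03 ± 0.04, which changed sign between replicates (exact p = 0.5, adjusted 0.55). Of the members, 791 (69.2%) overlapped 1 of the 5048 best peaks in all 3 replicates, 245 in 2, 105 in 1 and 2 in none. The share for both-strand summits was 67.0%.

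Occupied one-strand starts were often alternative starts inside long genes. The nearest start was the gene's most upstream one at 681 members and a later one at 462 (40.4%), and 376 of the latter summits were intronic. In replicates 1, 2 and 3 the share at later starts was 40.1%, 38.4% and 42.1%, and among all one-strand starts later ones were 32.4%. A later start had a summit of any class within 500 bp in 13.3% of cases and a most upstream start in 7.99% (replicates 13.8% ± 0.904 and 8.26% ± 0.187, later higher in 3 of 3). Starts of 1 gene can lie within 500 bp of each other and share a summit.

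Gene length went the same way where a gene had a single start. Among one-strand starts of such genes 4.15% had a summit for genes under 2 kb, 8.45% for those of 2 to 10 kb and 10.8% for those of 10 kb or more. The replicates gave 4.03% ± 0.0401, 8.70% ± 0.0232 and 11.9% ± 0.370 (SD, n = 3), in the same order. The same starts were scored in every replicate, so the SD covers differences between replicates and not the sampling of starts. Whether the length groups differ was not tested. Single-start genes with a summit had a median length of 2573.5 bp and those without 1672 bp.

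Some genes collected several members. Of 1034 genes with a one-strand summit near a start, 123 had 2 or more. Rtnl1 had 5, at 273, 325, 154, 354 and 259 bp upstream of its starts. dnc, the cAMP phosphodiesterase gene dunce, also had 5, at 317, 380, 283, 297 and 97 bp upstream. Exn, Ptpmeg2 and SNF4Agamma, the last a subunit of the AMP-activated kinase, had 4 each. By annotation 482 members were intergenic, 473 intronic, 151 in a 5' UTR, 24 in a 3' UTR and 13 in a coding exon, and 580 lay within the body of their nearest gene.

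The X chromosome held 20.6% of members and 17.5% of one-strand starts (replicates 20.5% ± 0.707). The isolation of these promoters was relative: 122 members (10.7%) had a coding start on the other strand 501 to 1000 bp away, and 62 (5.42%) a non-coding start on the other strand within 500 bp. Ugalt, PNPase and mRpL41, which ranked 2, 3 and 4 by optimal signal, were among the 122. Their nearest coding start on the other strand lay 666, 579 and 630 bp away. At CG14100, which ranked 1, it lay 4367 bp away, and the rest of the strongest members listed by name had none within 1000 bp. At the limit of 500 bp, CG43192, tay, CG32512, mmy and CG12811 were the last inside, at 496 to 499 bp, with optimal signals of 94.0, 95.0, 216.3, 66.6 and 123.5. CG45544, aop, yin, Fim and Pino were the first outside, at 502 to 505 bp, with 115.1, 83.4, 69.3, 85.6 and 143.2.

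Members lay in AT-rich dips. Mean GC content in 200 bp was 35.5%, against 38.5% for all one-strand starts 180 bp upstream and 42.4% for the members' flanks. Both-strand summits were lower, at 32.8%, by 3.09 ± 0.766 percentage points in the replicates (one-strand higher in 3 of 3, exact p = 0.25, adjusted 0.324). At one-strand summits GC fell to 32.7% in the 20 bp before the summit. Stronger members were poorer in GC, with 34.0% in the strongest 286 and 36.9% in the weakest 286.

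**Figure D3:**
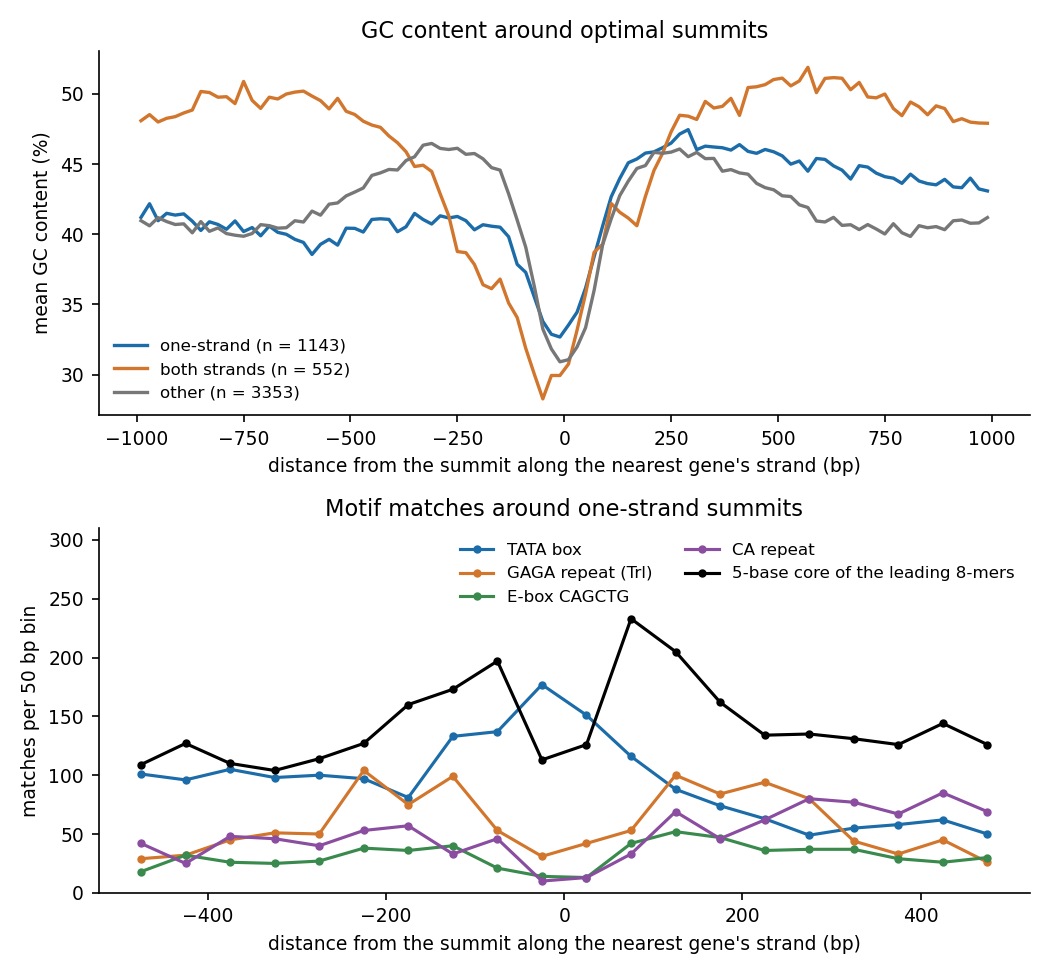
Mean GC content per 20 bp around summits of the 3 classes (upper) and matches per 50 bp bin around the 1143 one-strand summits for 4 motifs and for the 5 bases common to the leading 8-mers (lower), along the nearest gene's strand. The 5-base core peaked to each side of the summit, with 197 matches 100 to 51 bp before and 233 from 50 to 99 bp after, while TATA box matches peaked on it.

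Of 16 motifs looked up by their letters on both strands, those of broadly active and insulator-linked promoters were rarer at one-strand than at both-strand summits. Base composition differed between the sets of windows, and its part in these shares was not tested. The letters TATCGATA, the DNA replication-related element read by Dref and by the insulator protein BEAF-32, were in 1.92% of members, 7.07% of both-strand summits and 1.74% of all one-strand starts. Its core ATCGAT, which lies within it, was in 6.56%, 14.5% and 7.78%. GGTCACAC, bound by M1BP, another ZAD protein, was in 1.57%, 3.62% and 0.919%. Each was lower at one-strand than at both-strand summits in 3 of 3 replicates (exact p = 0.25, adjusted 0.324). Taken over all distances, members were near the level of one-strand starts in general, read 180 bp upstream, for the replication element and its core. The shares also went with distance from the start, which differed between the classes. Members 1 to 100 bp upstream held the replication element, its core and the M1BP letters in 8.59%, 16.4% and 4.69%. Those over 100 to 300 bp upstream held them in 0.746%, 4.85% and 0.746%. At this distance members were thus below all one-strand starts read 180 bp upstream, with 1.74%, 7.78% and 0.919%. The part of distance in the class difference, and in the comparison with all one-strand starts, was not tested. The M1BP share of members was 0.885% for peaks found in all 3 replicates and 0.0% among the 500 strongest peaks, so its side of the share for all one-strand starts is not settled, and that of the replication element was 1.09% among the 500 strongest.

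GAGAGAG, the repeat bound by the GAGA factor Trl, went the other way, in 7.35% of members, 1.45% of both-strand summits and 6.59% of all one-strand starts. The CA repeat CACACACA was in 4.29%, 1.63% and 4.37%. Both were higher at one-strand than at both-strand summits in 3 of 3 replicates (8.52% ± 1.74 against 1.08% ± 0.483 for GAGAGAG, exact p = 0.25, adjusted 0.324). The E-box CAGCTG was lower at members (7.26%) than at both-strand summits (11.4%), and 8.26% of all one-strand starts held it. Matches to GAGAGAG dipped at the summit, with 31 in the 50 bp before it and 99 from 150 to 101 bp before. The same dip was seen for the E-box, with 14 and 40, and for the CA repeat, with 10 and 33.

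TATAAA was in 33.9% of members, 45.8% of both-strand summits and 29.9% of all one-strand starts, and its matches around the summit peaked on it. At the usual position of a TATA box, 45 to 20 bp before the start on the sense strand, it was present at 35 of 1097 member starts (3.19%; replicates 3.30% ± 0.193) and at 8.01% of all one-strand starts. Occupied one-strand promoters were thus poorer in positioned TATA boxes. The Initiator letters TCAGT within 10 bp of the start were more frequent, at 21.0% of member starts (replicates 20.5% ± 1.38) and 15.3% of all one-strand starts.

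At the summit itself TCAGT was in 35.1% of members, 28.1% of both-strand summits and 29.7% of all one-strand starts. TCAGT overlaps the core CACTG by its reverse complement. In windows lacking CACTG the share with TCAGT was 25.8% at members and 23.4% at all one-strand starts, and in windows with CACTG it was 47.2% and 45.04%. The remaining motifs were AAAAAAAA (16.1% of members, 15.8% of both-strand summits, 12.5% of all one-strand starts), ATATATAT (5.77%, 6.16%, 4.88%), the heat shock factor letters GAANNTTC (5.51%, 6.52%, 6.21%) and the nuclear receptor hexamer AGGTCA (3.50%, 3.44%, 4.39%). CACGTG was in 2.27%, 1.63% and 2.27%, CAGGTAG, bound by Zelda, in 0.700%, 0.362% and 1.27%, TGACTCA in 1.22%, 1.63% and 1.83%, and the GATA site AGATAAG in 3.50%, 2.54% and 3.44%. None of the 16 was in 209 members.

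Of the 16 motifs, 3 went with higher signal in every replicate, 5 with lower signal in every replicate, and 8 were mixed. In each replicate's own one-strand summits the log2 ratio of median signal with and without the motif was 0.14 ± 0.03 for TATAAA (higher in 3 of 3) and 0.25 ± 0.06 for the E-box CACGTG (higher in 3 of 3). The other E-box, CAGCTG, went the opposite way, with -0.24 ± 0.04 (lower in 3 of 3). ATATATAT was higher by 0.02 ± 0.01, while CACACACA had -0.24 ± 0.09, GAGAGAG -0.13 ± 0.05 and TATCGATA -0.12 ± 0.12, each lower in 3 of 3. For the M1BP element it was -0.34 ± 0.08, from 18 members in the optimal list and 0 of the strongest 286, where a count of 0 allows up to 1.05%. Each of these 8 had exact p = 0.25, the smallest 3 replicates allow, and 0.5 after Benjamini-Hochberg adjustment over the 16 motifs. In the optimal list the median signal was lower with ATATATAT than without (101.6 against 108.4) and alike for GAGAGAG (107.6 against 107.4). The others of the 8 kept their direction there.

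The 25 strongest members were found in every replicate. The optimal list was made from all replicates, so this belongs partly to how these members were chosen. All 25 were among the best peaks of all 3 replicates, 22 lay upstream, and the means ran from 5.28 to 12.3 times the median peak with a coefficient of variation of at most 18.0%. PNPase, a mitochondrial RNA exonuclease, had 10.5, 9.58 and 9.85 at a summit 74 bp downstream of its start. mRpL41, of the mitochondrial ribosome, had 9.29, 9.999 and 8.35. Hsp27, a small heat shock protein gene, had 8.23, 8.44 and 8.47 at 161 bp upstream, and varied least among the first 6.

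Enzymes, kinases and regulators were among the rest. Gapdh2, a glycolytic enzyme, had a mean of 6.66 ± 0.796, Lpin, the phosphatidate phosphatase lipin, 6.14 ± 0.538, and GstE13, a glutathione S-transferase, 6.76 ± 0.319 (SD, n = 3). The kinases gish (casein kinase 1 gamma) and for (the cGMP-dependent kinase foraging) had 6.40 ± 0.0429 and 6.28 ± 0.771. larp, an RNA-binding protein, had 7.23 ± 0.235, and scb, an integrin alpha subunit, 6.72 ± 0.263. Sox14, a transcription factor induced by ecdysone, had 5.84 ± 0.296, and eIF6, a factor of ribosome assembly, 5.28 ± 0.694. CG18549, CG13921, CG1888, Tina-1, Fkbp14 and MFS18 completed the group, with means from 5.65 to 7.33.

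**Figure D4:**
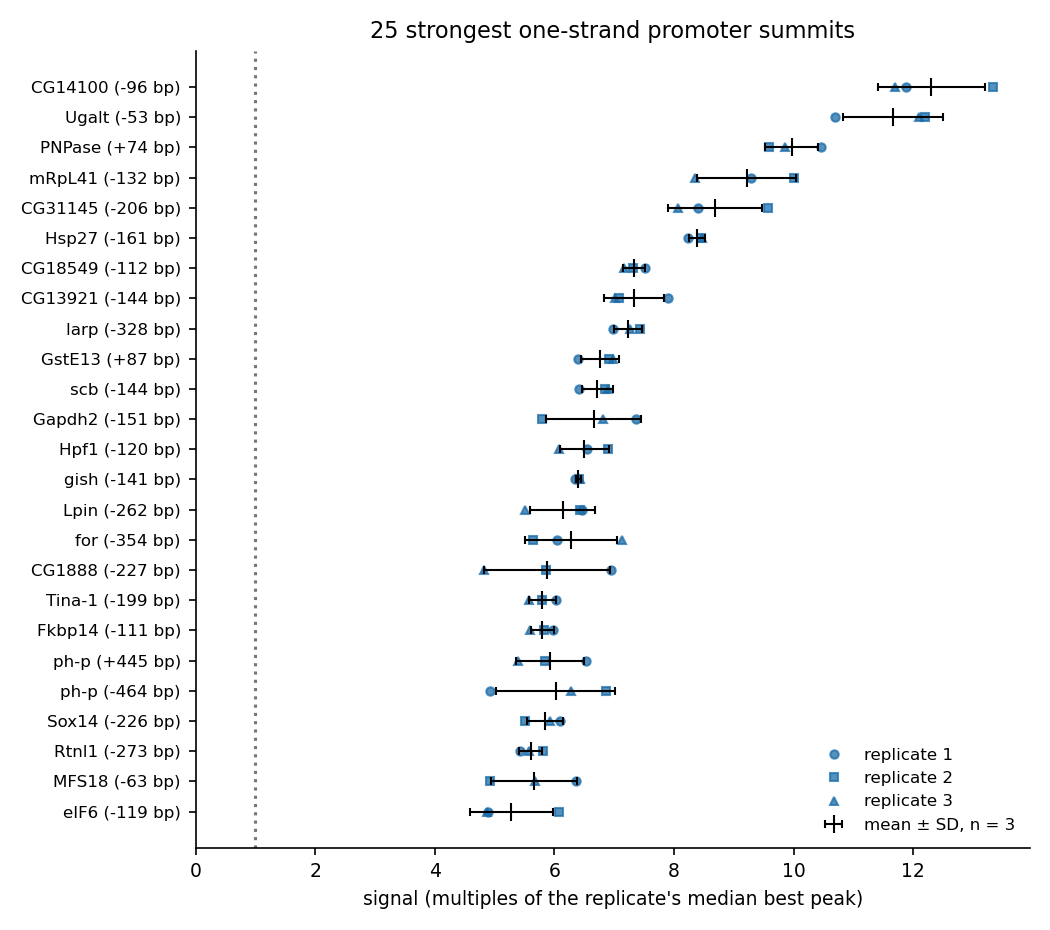
Signal at the 25 strongest one-strand summits in each replicate (symbols), as multiples of the replicate's median best peak, with mean and SD (n = 3) and the offset from the nearest start beside each gene. CG14100 and Ugalt stand above 10 in every replicate, and every summit shown is above 4 in all 3.

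Of 13968 protein-coding genes, 7.4% had a one-strand summit within 500 bp of a start, the background for the gene lists. Ecdysone response genes stood above it, with 11 of 36 (30.6%; replicates 32.4% ± 4.24), and 34 of the 36 had a one-strand start. The 11 were EcR, the ecdysone receptor, the early genes br, Eip74EF, Eip75B, Eip93F and Eip63F-1, the competence factor ftz-f1, ImpE3, Ldh, the death gene hid and E23, an ABC transporter. E23 was strongest, with 3.43, 3.97 and 3.78 times the median peak at 250 bp upstream. hid followed with 2.90, 4.05 and 2.93, and Eip75B with 2.47, 2.47 and 1.84, all above the median peak in every replicate. The 10 ecdysone synthesis genes had none (0 of 10, which allows up to 30.0%), and 8 of them had a one-strand start.

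Genes of the cytoplasmic ribosome were also above the background, with 21 of 93 (22.6%; replicates 23.3% ± 2.24). The count depended on the promoter window, with 33 of 93 (35.5%, background 6.2%) for 250 bp and 13 of 93 (13.98%, background 8.83%) for 1000 bp. The 3 strongest sat close to the start. RpS10b had 2.38, 1.51 and 1.46 at 10 bp upstream, RpL24 1.75, 1.23 and 1.89 at 17 bp upstream, and RpS4 1.19, 1.32 and 2.08 at 19 bp downstream. The mitochondrial ribosome differed at one-strand summits, with 1 of 73 (1.37%), mRpL41. Both-strand summits were at 17 of the 73, at 27 of the 93 cytoplasmic genes and at 1078 of the 13968 coding genes. Only 20 of the 73 mitochondrial ribosome genes had a one-strand start, against 60 of the 93 cytoplasmic ones.

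Clock and redox genes were small lists with high shares. Of 11 circadian clock genes 4 had a one-strand summit (36.4%) and 0 a both-strand one. The kinase gene sgg had 3.13, 3.65 and 2.40, the light receptor cry 2.36, 2.27 and 1.70, and the bZIP factor Pdp1 1.22, 0.932 and 1.53. vri completed the list. Of 13 Keap1 and redox genes 4 were bound (30.8%), with Cat, catalase, at 4.50, 2.16 and 4.25, cnc, the fly Nrf2, at 1.98, 1.67 and 1.76, Sod1 at 0.930, 0.746 and 0.445, and GstD1. Of 18 insulin and TOR genes 4 were bound (22.2%): Pi3K21B, a kinase subunit (1.51 ± 0.673), foxo, the transcription factor (0.910 ± 0.346), Thor, the translation repressor 4E-BP (0.861 ± 0.128), and Pi3K92E. The redox count was 2 of 13 (15.4%) without replicate 2, with a 250 bp window and for peaks found in all 3 replicates. The insulin and TOR count was 2 of 18 (11.1%) without replicate 3 and for peaks found in all 3 replicates.

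Nearer the background were ZAD zinc finger genes (2 of 13, Sry-delta at 0.605 ± 0.121 and ken at 0.830 ± 0.426), heat shock genes (3 of 22, Hsp27, Hsp26 at 1.96 ± 0.373 and Hsp83 at 1.77 ± 0.370) and chromatin architecture genes (2 of 16, Trl at 2.72 ± 0.573 and BEAF-32 at 0.871 ± 0.339). The same holds for cell death and autophagy genes (3 of 25, hid, Atg8a at 1.10 ± 0.252 and Atg13 at 0.761 ± 0.128), Hox and segmentation genes (3 of 28, hb at 1.48 ± 0.227, cad at 0.930 ± 0.384 and so at 0.689 ± 0.181), and translation initiation factors (4 of 44, eIF6, eIF5B at 1.18 ± 0.148, eIF3c at 0.867 ± 0.0832 and eIF2beta). Chromatin remodelling genes had 1 of 25, dom at 0.898 ± 0.284. With counts this low single replicates mattered: ZAD genes had 0, 1 and 0 without replicates 1, 2 and 3, chromatin architecture genes 1 without replicate 1 or 2, and Hox and segmentation genes 1 without replicate 3.

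Cuticle genes had 0 of 96, which allows up to 3.12%, although 93 of them had a one-strand start. Proteasome genes (0 of 48), tRNA synthetases (0 of 32) and salivary glue genes (0 of 18) also had none, allowing up to 6.25%, 9.38% and 16.7%. With a promoter window of 1000 bp cuticle genes had 2 and ecdysone synthesis genes 1, and with 250 bp the synthetases had 1. Proteasome and synthetase genes had 4 each at both-strand summits. These limits cover counting error only, and lists differ in gene length and number of starts, which went with occupancy above.

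**Figure D5:**
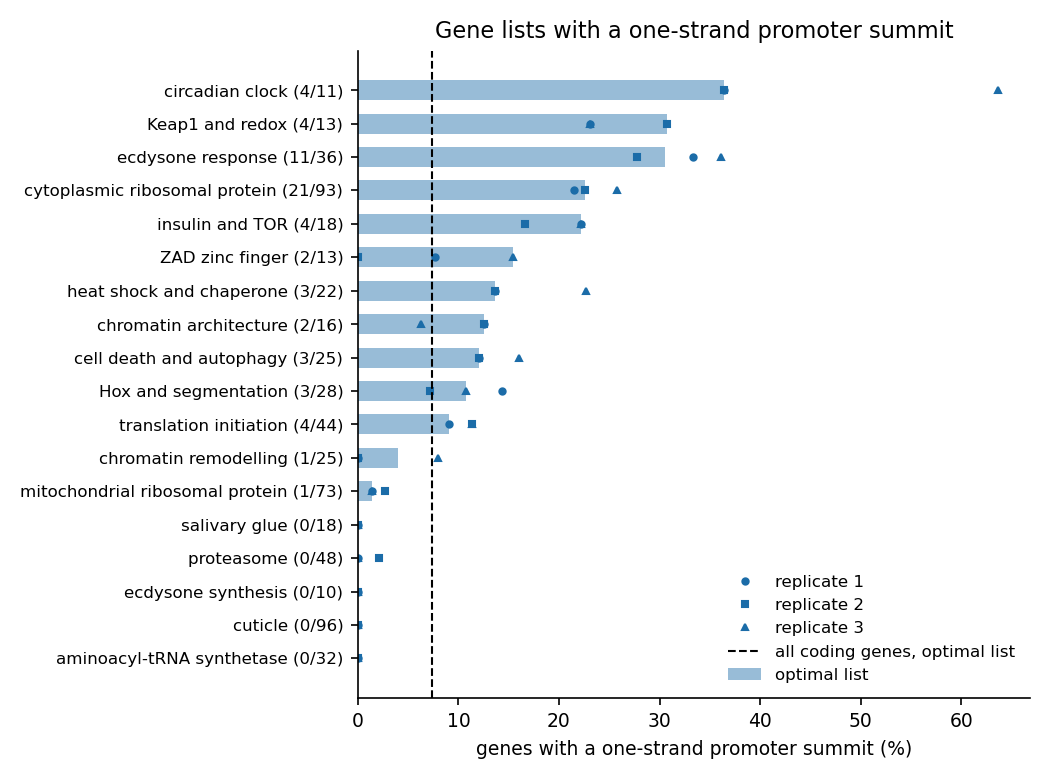
Share of genes with a one-strand summit within 500 bp of a start, for 18 lists (bars, optimal list; symbols, the replicates), with bound and listed genes in brackets. The dashed line is the share over all coding genes, 7.4%, and 4 lists reach 22.6% or more.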

How the data were processed

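The files hold peak calls. Per the deposited file lists, these were called for each replicate against a control, and irreproducible discovery rate set the optimal list; the sources used here do not name the aligner or caller. Peaks carry the authors' signal, a deposited value whose scale is not stated. Read counts are not in these lists, so depth is unknown, precision rests on the 3 replicates, and control libraries were not analysed here. Replicates are the biological replicates named in the labels.

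Starts, exons and genes came from Ensembl release 115 (BDGP6.54); bases were read from NCBI's copy of that assembly. Each replicate was reduced to its 5048 strongest peaks, every measure was recomputed in them, and signal was divided by their median. A member's signal in a replicate is that of the strongest of its 30000 peaks overlapping by 1 bp or more. Members and lists were chosen with earlier results of these data known. Named genes are the 25 strongest members, the 3 strongest of each list and the 5 nearest the limit on either side; other genes in lists, and those with repeated summits or the 8-mers, were named after their values were seen. Printed windows are the strongest that hold the letters and no exon, ended at the start where they would pass it, and none came from one chromosome arm. Listed symbols were matched through synonyms, and Zif1 and weck were not matched. Calculations were run with scipy 1.17.1, pandas 2.3.3 and numpy 2.4.6 under Python 3.11.15, figures were drawn with matplotlib 3.10.9, and the class and offset of summits, motif shares, 8-mer counts and the direction of copies were tested on simulated data. Alternatives covered the promoter window, the transcripts used, the peaks kept, the length of sequence and each replicate left out.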

Additional observations from a re-analysis of the deposited data

How the results depend on the processing

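With a promoter window of 250 bp the one-strand share of promoter summits was 72.5%, the median offset -125 bp and the ratio of median signal, one-strand over both-strand, 0.866 (0.982 as reported). In the 500 strongest peaks these were 71.6%, -192.5 bp and 0.908, with 85.9% upstream and a GC content of 34.0%. A window of 1000 bp left 71.7% upstream, and starts of all transcripts 77.6%. GC content was 33.6% in 100 bp. For peaks found in all 3 replicates the signal ratio was 1.05, and leaving out a replicate gave 1.00 to 1.06, so its side of 1 is not settled. Members in the best peaks of all replicates were 464 with 2500 peaks per replicate. Leaving out each replicate gave 67.2% to 69.2% for the share, -185 to -182 bp, 80.9% to 82.0% upstream, 35.0% to 35.4% GC and 779 to 814 genes. Chosen after seeing the data, CACTG was in 17.3% of members in 100 bp, 68.1% in 400 bp and 45.1% among the 500 strongest peaks. Also chosen then, CCACTGT faced the summit in every copy counted at members among the 500 strongest peaks, 93.6% at those found in all 3 replicates and 91.7% with the central 50 bp to each side included. The inward pair was in 6.52%, 3.16% and 2.36% of members under these settings. Leaving out a replicate here keeps peaks found in the others, and the optimal list still rests on all 3. Differences between promoter classes were taken within each replicate and so are paired by it. There is only 1 group, so no replicate numbers are shared between groups.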
